A study of Mus musculus with 6 samples.

Results

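The 7 genes described here encode the ID proteins, Id1, Id2, Id3 and Id4, and the class I E proteins, Tcf3, Tcf4 and Tcf12. They were picked by gene symbol from the 24391 annotated genes, all 7 were found, and all 7 were among the 12664 genes with enough counts to be tested. E proteins are widely expressed basic helix-loop-helix (bHLH) transcription factors that bind the E-box, as pairs with each other or with tissue-restricted class II partners. ID proteins carry the helix-loop-helix but no basic region, so a pair that includes one cannot bind DNA, and they act as inhibitors that hold E proteins away from their partners. ID genes are classic targets of BMP signalling through SMAD1, SMAD5 and SMAD9. Tcf3 here is the E2A gene and Tcf4 is the E2-2 gene, and they are distinct from Tcf7l1 and Tcf7l2 of the WNT pathway, which share older names with them.

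The cells were mRPMaxKO, a mouse line from a lung tumour that lacks Max. The labels do not spell out the R and P of its name, which from knowledge of the study stand for the tumour suppressors RB and p53, deleted in this mouse model of small cell lung cancer, and the strain was a mixed 129/SvJ and C57BL/6 one. The control group and the MAX restored group had 3 libraries each. A polyclonal puromycin-selected population with a doxycycline-inducible lentiviral vector was used below passage 20, and the treatment text, worded alike for all libraries, gives doxycycline for 4 days. The labels leave unsaid whether the controls carried an empty vector or received doxycycline, so an effect of either cannot be told apart from MAX. Whether the replicate libraries were separate cultures is also not given, and p-values therefore reflect the spread among these 6 libraries, which may be technical.

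Library totals lay between 10046899 and 11925909 counts. Max, the gene put back, held 62.9, 66.3 and 61.4 CPM (counts scaled to a library of 1000000) in the 3 controls against 1343, 1332 and 1306 with MAX restored, so each library matched its label. Control 1 stood apart from the other controls, with a chi-square per degree of freedom of 8.91 and 10.2 against them, where the other pairs within groups lay between 1.24 and 1.5. Results that rest on control 1 are given below without it too. All 10 neuroendocrine markers checked were abundant enough to be tested, and their summed level was 9090 to 9320 CPM in the controls and 9570 to 9900 CPM with MAX restored. Of the 10, 7 rose and 1 fell, where 31.2% of all genes tested were called higher and 32.3% lower. Those that rose include Insm1, Chga and Calca, with log2 fold changes of 0.16, 0.40 and 0.14. Markers of other cells were low, apart from the endothelial marker Vwf. The summed level of 9 fibroblast markers was 4.33 to 4.56 CPM in the controls and 5.88 to 7.31 CPM with MAX restored, with Lum at 0. For 8 immune markers it was 1.49 to 2.95 and 2.5 to 3.32 CPM, with Cd3e and Adgre1 at 0. For 7 alveolar and airway markers it was 48.1 to 50.4 and 47.8 to 53.9 CPM, with none at 0 in all libraries. The 6 endothelial markers summed to 528 to 582 and 419 to 454 CPM, almost all of it Vwf, with Cdh5 at 0. The neuroendocrine, fibroblast and endothelial sums did not overlap between groups, and their part in the results below was not tested. In bulk RNA, fewer cells of a type and less RNA per cell cannot be told apart.

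The promoter letters of the ID genes and of Tcf3 are shown because the palindrome CACGTG is the E-box that MYC-MAX pairs bind best, whereas E protein pairs bind CANNTG more widely. The windows are the 250 bases before the gene start, from RefSeq on build GRCm38.p6, a build other than the mm9 of the counts. Of the 7 genes 5 had a window that could be used, with 7 windows in all because Tcf12 has 3 starts; Id1 and Tcf4 are named only. Capitals mark CANNTG and GGCGCC, a GC-rich motif known from BMP-responsive elements of ID genes. The windows are chr12:25096093-25096342 on the minus strand for Id2, chr4:136143572-136143821 on the plus strand for Id3, chr13:48260866-48261115 on the plus strand for Id4 and chr10:80433636-80433885 on the minus strand for Tcf3.
Id2: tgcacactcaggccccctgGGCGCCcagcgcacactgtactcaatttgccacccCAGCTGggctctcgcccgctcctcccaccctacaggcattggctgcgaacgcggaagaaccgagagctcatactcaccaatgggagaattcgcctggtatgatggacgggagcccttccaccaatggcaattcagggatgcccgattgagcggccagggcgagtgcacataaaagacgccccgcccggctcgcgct
Id3: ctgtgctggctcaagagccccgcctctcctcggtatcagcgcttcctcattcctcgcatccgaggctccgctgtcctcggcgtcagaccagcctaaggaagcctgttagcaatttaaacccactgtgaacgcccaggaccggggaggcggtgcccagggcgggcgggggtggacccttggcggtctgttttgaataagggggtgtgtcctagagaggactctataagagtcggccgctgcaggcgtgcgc
Id4: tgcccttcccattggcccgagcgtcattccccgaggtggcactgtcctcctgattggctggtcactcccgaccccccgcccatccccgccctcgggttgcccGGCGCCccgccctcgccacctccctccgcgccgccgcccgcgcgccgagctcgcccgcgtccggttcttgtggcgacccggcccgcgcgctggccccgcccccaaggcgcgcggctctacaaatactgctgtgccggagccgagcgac
Tcf3: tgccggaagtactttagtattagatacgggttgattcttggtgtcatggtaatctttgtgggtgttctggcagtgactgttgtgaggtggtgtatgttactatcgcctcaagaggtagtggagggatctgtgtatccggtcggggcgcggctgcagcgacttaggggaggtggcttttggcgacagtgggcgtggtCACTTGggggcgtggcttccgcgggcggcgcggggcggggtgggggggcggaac

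None of the 7 windows held CACGTG, which 6.02% of the 32851 promoter windows of the same length hold. That says only that these letters are not in this window. CANNTG was found once in the windows of Id2 (CAGCTG, beginning 196 bases before the start), of Tcf3 (CACTTG, 54 bases before) and of 2 of the 3 Tcf12 starts, and it is in 66.2% of all windows. GGCGCC was found in the windows of Id2 and Id4, at 231 and 148 bases before the start, against 9.59% of all windows. GTCT or its reverse complement AGAC, a core of SMAD sites, was found 2 times in the Id3 window and once in that of Id2, in none of the Id4 and Tcf3 windows, and in 82.9% of all windows. Both strands were searched, and no CANNTG match overlapped a GGCGCC match. The 4 printed windows thus differ in the motifs they hold, and a match is a description of letters only.

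**Figure D1:**
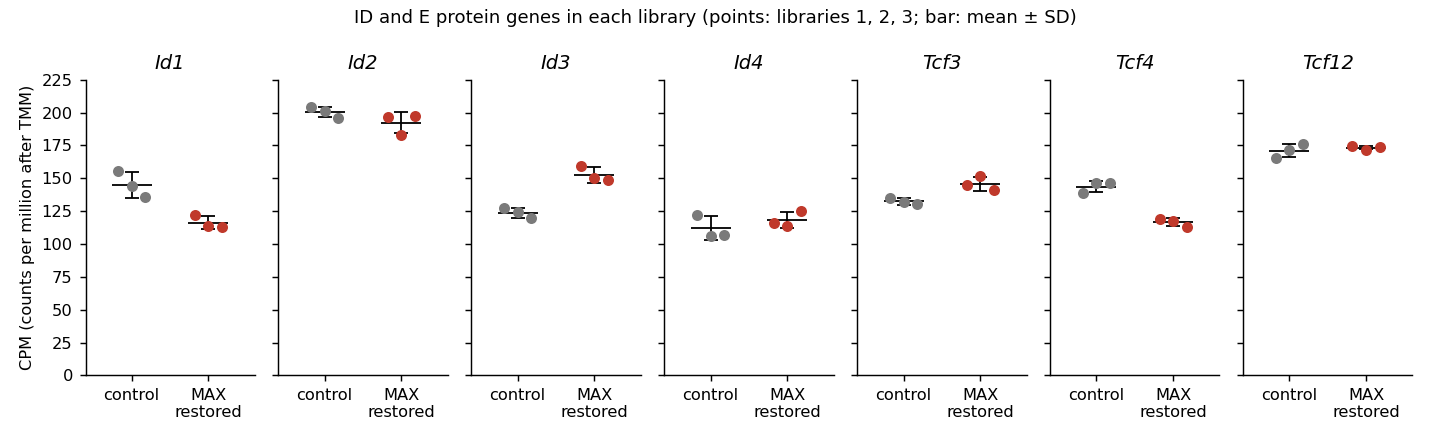
CPM of the 7 genes on the y axis, by group on the x axis, with 1 point per library and the mean ± SD over 3 libraries. The groups do not overlap for Id1, Id3, Tcf3 and Tcf4, and they overlap for Id2, Id4 and Tcf12.

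With MAX restored, Id1 and Tcf4 were lower, Id3 and Tcf3 were higher, and Id2, Id4 and Tcf12 did not pass the test. All changes were small, with the largest at 1.25-fold. Thus 2 of 7 members were called higher and 2 lower, against 31.2% of all genes called higher and 32.3% called lower, 63.5% in all. A share of 4 in 7 is near that background, so the number of members called is not a result about these genes. Leaving out control 1 gave 3 members called higher, and leaving out MAX restored library 2 gave 1, with 2 called lower in both cases. The groups did not overlap in 4 of the 7, where 67.1% of all genes tested did not overlap. The median log2 fold change of the 7 was 0.02, and that of all genes tested was 0.00.

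Id1, an inhibitor known for its strong response to BMP, had 155, 144 and 136 CPM in controls 1, 2 and 3. The MAX restored libraries, in the same order, had 122, 114 and 113 CPM. Every MAX restored library lay below every control, and control 1 was the highest of the 6. The fall was 1.25-fold, or -0.32 in log2 fold change (SE 0.05), and edgeR's test over all genes gave an adjusted p of 3.69e-05. Without control 1 the log2 fold change was -0.27, and the adjusted p was 1.53e-08. In mm9 Id1 spans chr2:152561987-152563146 (plus strand), and its 2 exons hold 934 bases.

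Id3, a close relative of Id1, moved the other way. It had 127, 125 and 120 CPM in controls 1, 2 and 3, against 159, 150 and 148 CPM with MAX restored. All 3 MAX restored libraries were above all controls. The rise was 1.23-fold (log2 0.30, SE 0.05; adjusted p = 1.94e-05, edgeR). The gene has 3 exons with 953 bases at chr4:135699737-135701307 of mm9 (plus strand). No other annotated gene overlaps Id1, Id2 or Id3, so the lack of strand in the counting does not mix them with a partner.

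Id2, which is also known to bind the RB family, had 204, 201 and 196 CPM in the controls and 197, 183 and 197 CPM with MAX restored, in the order of the libraries. The ranges overlap, since MAX restored libraries 1 and 3 lie above control 3. The estimate was -0.06 (SE 0.04) on the log2 scale, which did not pass (adjusted p = 0.252). In mm9 Id2 spans chr12:25778664-25780957 (minus strand) and has 3 exons. Id4, which is known from neural progenitors, had 122, 106 and 107 CPM in controls 1, 2 and 3. It had 116, 114 and 125 CPM in MAX restored libraries 1, 2 and 3. Control 1 lay above MAX restored libraries 1 and 2, and the other controls lay below every MAX restored library. Over all 6 libraries Id4 was 0.08 higher in log2 terms (SE 0.06), and it did not pass (adjusted p = 0.244). Without control 1 it was 0.14 with an adjusted p of 0.00303, so this library decides whether Id4 passes the test. In mm9 Id4 spans chr13:48356796-48359405 (plus strand), and an exon of the minus-strand gene A330033J07Rik overlaps its exons. Counting without strand leaves out reads in that overlap. A330033J07Rik itself was at 1.72 CPM in the controls and 1.62 CPM with MAX restored.

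Among the E proteins, Tcf4 fell and Tcf3 rose. Tcf4, an E protein with a prominent role in neural development, had 139, 146 and 146 CPM in controls 1, 2 and 3, against 119, 118 and 113 CPM with MAX restored. Each MAX restored library was below each control. The fall was 1.23-fold (log2 -0.30, SE 0.05; adjusted p = 1.57e-05, edgeR). Tcf4 lies on chromosome 18, where its exons sum to 7681 bases. Tcf3, which gives rise to the E12 and E47 proteins by alternative use of an exon, had 135, 132 and 130 CPM in the controls and 145, 152 and 141 CPM with MAX restored. Its groups did not overlap, though control 1 and MAX restored library 3 were close. The rise was 1.10-fold (log2 0.14, SE 0.05; adjusted p = 0.0145), and without MAX restored library 2 it did not pass (log2 0.12, adjusted p = 0.0774). In mm9 Tcf3 spans chr10:79871910-79896398 (minus strand). Counts per gene do not separate E12 from E47.

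Tcf12, the gene of the E protein HEB, had the smallest estimated change of the 7. It had 166, 172 and 176 CPM in controls 1, 2 and 3, against 174, 172 and 174 CPM with MAX restored. All 3 MAX restored libraries lay within the range of the controls. The estimate was 0.02 (SE 0.04) on the log2 scale (adjusted p = 0.722), and without control 1 it was -0.0055. The absolute change was smaller in only 4.1% of all genes tested. For Id1, Id3 and Tcf4 that share was 57.8%, 55.7% and 55.5%, so these changes were of middling size in this comparison. In mm9 Tcf12 spans chr9:71692059-71959626 (minus strand).

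**Figure D2:**
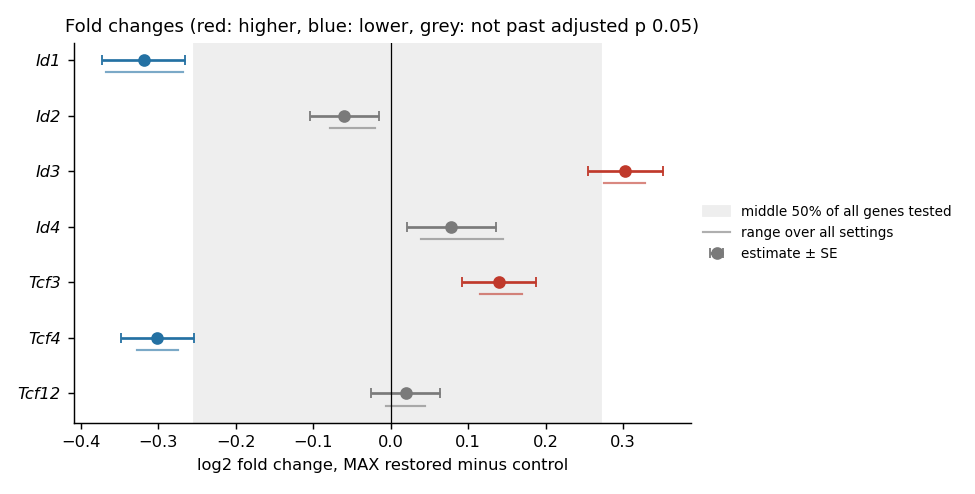
Log2 fold change of MAX restored minus control on the x axis for each gene on the y axis, as the estimate ± SE with the range over all settings tried as a thin line below it. Id1 at -0.32, Tcf4 at -0.30 and Id3 at 0.30 lie outside the shaded middle 50% of all genes, which runs from -0.25 to 0.27.

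Levels of different genes were compared per length, as reads per 1000 bases of exon in a library of 1000000 (RPKM). In the controls Id2 (158 ± 3.25 RPKM, SD, n = 3 here and below) and Id1 (155 ± 10.6) had overlapping ranges. They were followed by Id3 (130 ± 3.96), Id4 (67.4 ± 5.53), Tcf3 (37.3 ± 0.675), Tcf12 (33.8 ± 1.03) and Tcf4 (18.7 ± 0.570), and no other neighbours in this order had overlapping ranges. With MAX restored the order at the top was different. Id3 (160 ± 6.29 RPKM) led, then Id2 (151 ± 6.31) and Id1 (124 ± 5.10), followed by Id4 (71.2 ± 3.52), Tcf3 (41.1 ± 1.54), Tcf12 (34.2 ± 0.280) and Tcf4 (15.2 ± 0.387). No neighbours overlapped there, and Id3 and Id2 were the closest pair at a ratio of 1.06. The length used is that of all exons of a gene together, which lowers the RPKM of genes with many alternative exons such as Tcf3, Tcf4 and Tcf12. For Id4 it includes the overlap with A330033J07Rik, where reads are left out. This may lower the RPKM of Id4, its share and the ID sum by an amount that was not measured.

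The order of Id1 and Id3 turned over. The Id3 level was 0.801, 0.847 and 0.864 of the Id1 level in controls 1, 2 and 3, and 1.28, 1.29 and 1.28 of it with MAX restored. Id1 was thus above Id3 in every control and below it in every MAX restored library. The sum of both was 300, 285 and 271 RPKM in the controls and 298, 280 and 277 RPKM with MAX restored, which overlap. Tcf3 over Tcf4 went from 2.11, 1.96 and 1.93 in the controls to 2.63, 2.79 and 2.70. That ratio was higher in all 3 MAX restored libraries than in any control. Both ratios restate the opposite changes of genes described above and are not separate results. Of all genes tested, 67.1% did not overlap between the groups.

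The summed level of each family overlapped between the groups while its make-up differed. The 4 ID genes summed to 534, 507 and 489 RPKM in controls 1, 2 and 3 and to 522, 492 and 507 RPKM with MAX restored. The 3 E protein genes summed to 88.8, 90.2 and 90.5 RPKM in the controls and 90.7, 92.0 and 88.9 RPKM with MAX restored. The ratio of the ID sum to the E protein sum was 5.68 ± 0.306 in the controls and 5.60 ± 0.225 with MAX restored, with ranges that overlap. Within the ID sum, Id1 gave 30.4% ± 0.740 in the controls and 24.6% ± 0.569 with MAX restored, and Id3 gave 25.5% ± 0.435 and 31.6% ± 0.768, both without overlap. The shares of Id2 (30.9% ± 0.752 and 29.8% ± 0.681) and Id4 (13.2% ± 0.615 and 14.0% ± 0.737) overlapped. Within the E protein sum, Tcf4 went from 20.8% ± 0.425 to 16.8% ± 0.267 and Tcf3 from 41.6% ± 1.16 to 45.4% ± 0.959, without overlap. The Tcf12 share overlapped between the groups, at 37.6% ± 0.785 and 37.8% ± 0.917. The shares without overlap are those of the members called above, so they follow from those calls and add no separate result. These sums and shares are descriptions with no test, and messenger levels do not give the amounts of the proteins.

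**Figure D3:**
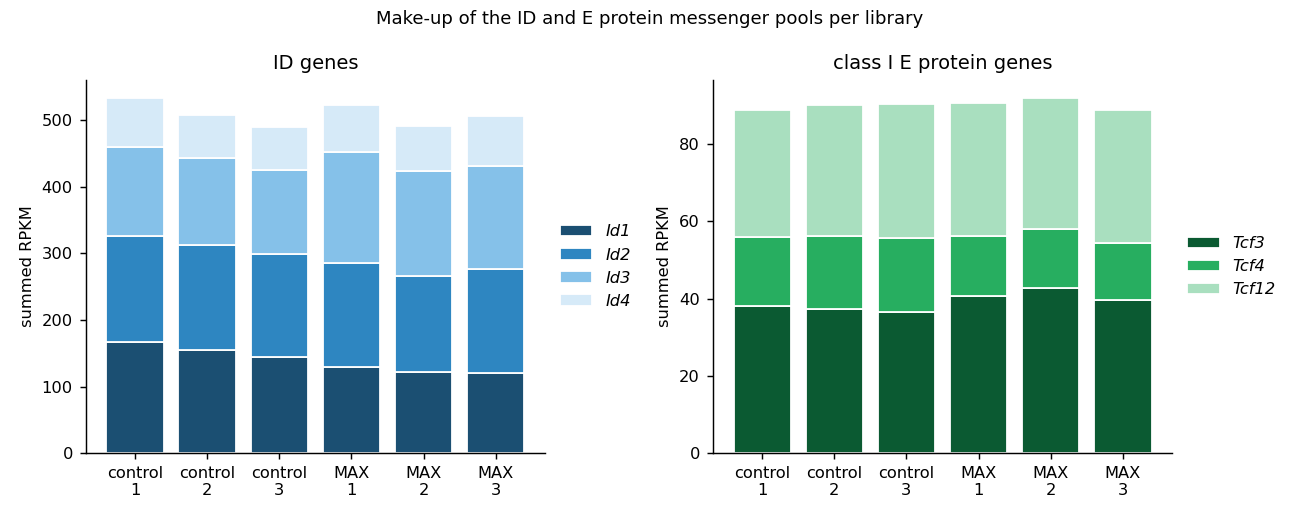
Summed RPKM on the y axis for each of the 6 libraries on the x axis, for the ID genes (left) and the E protein genes (right), with each gene as a segment. The column heights overlap between groups (489 to 534 RPKM for ID genes), while the Id1 and Tcf4 segments are smaller and the Id3 segment is larger in the MAX restored libraries.

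The genomic surroundings of the members were examined to see whether genes next to them changed alike. Of the 50 tested genes nearest to Id3 in mm9 order, between 134024235 and 137923870 on chromosome 4, 37 were called higher and 6 lower. Among all genes tested, 31.2% were called higher and 32.3% lower. The median change of the 50 was 0.38 on the log2 scale. The other 766 tested genes of the chromosome had a median of 0.07. With its log2 fold change of 0.30, Id3 was below 28 of those 50 neighbours. Of the tested genes next to Id3, the elongin gene Tceb3 rose (0.47, SE 0.05) and so did Asap3 (1.27, SE 0.07). Rpl11 was called higher too (0.71), with only 1.92 CPM counted in the controls and 3.17 CPM with MAX restored. Rpl11 did not pass without control 3 (adjusted p = 0.0617) or without MAX restored library 1 (0.0617) or 3 (0.108), nor with DESeq2 (0.0609). E2f2 was at 0.07 and did not pass. The part of this local shift in the rise of Id3 was not tested.

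Around the other members the medians lay nearer to 0. Around Id1 the 50 nearest tested genes had a median of -0.11, and Id1 at -0.32 was below 38 of them. Of the 50, 10 were called higher and 21 lower, where 31.2% of all genes were called higher and 32.3% lower. Of the genes beside it, H13 (-0.16) and Tpx2 (-0.21) fell, and Bcl2l1 (0.00) and Mcts2 (0.05) did not pass. Around Tcf4 the median was -0.06, and 37 of 50 neighbours lay above it. The medians around Id2, Id4, Tcf3 and Tcf12 were -0.11, -0.08, 0.04 and 0.02. The windows hold equal numbers of genes and so differ in length, from 79460360 to 80522899 around Tcf3 and from 15798533 to 33638654 around Id2. Kidins220 beside Id2 (0.36) rose, as did Atp8b3 beside Tcf3 (1.06) and Cgnl1 beside Tcf12 (1.86), from 1.08 and 1.40 CPM. Mboat2, Uqcr11, Mbd3, Rexo1 and Zfp280d beside them did not pass, though Rexo1 did without control 1 (-0.13, adjusted p = 0.0061).

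**Figure D4:**
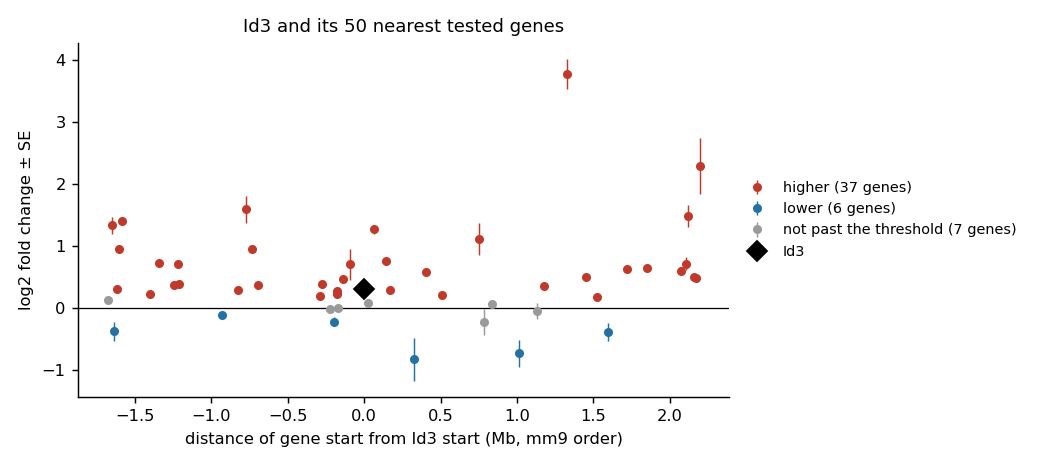
Log2 fold change ± SE on the y axis of Id3 (diamond) and its 50 nearest tested genes, by the distance of the gene start from that of Id3 in Mb on the x axis. Of the 50 neighbours 37 are higher, 6 lower and 7 not past the threshold, and Id3 at 0.30 lies just under their median of 0.38. Among all genes tested, 31.2% are called higher and 32.3% lower.

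The genes whose profiles over the 6 libraries lay closest to each member were found by the Euclidean distance between mean-centred log2 CPM values, over 11946 genes. Closest to Id1 were Mvp, Lsm10 and Ube2g1 (distances 0.05, 0.05 and 0.06), and to Id3 Pitpna, Ctnna1 and Slc25a4 (0.05, 0.06 and 0.06). Closest to Tcf4 were Leprotl1, Ppp1r15a and Ubr2 (all 0.04), and to Tcf3 1110038F14Rik, Ndufb7 and Spice1 (0.02, 0.04 and 0.04). For Id2 they were Det1, Ift81 and Acd, for Id4 Cbfb, Osbpl8 and Smek1, and for Tcf12 Setd7, Cul9 and Glyr1. Like Id4, its closest genes Cbfb, Osbpl8 and Smek1 did not pass over all 6 libraries but passed without control 1. Their log2 fold changes were then 0.11, 0.11 and 0.13 (adjusted p = 0.00252, 0.0406 and 0.00698, edgeR). No member had another member among its 3 closest genes. The 3 genes closest to Id1 had log2 fold changes of -0.32, -0.33 and -0.32, and those closest to Id3 had 0.32, 0.31 and 0.32. Values close to that of the member follow from the way these genes were picked, since the distance includes the difference between groups.

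Genes of the same regulatory circuit were read from the same fit, as lists of partners, repressors, signals, cofactors and targets. Beside a median log2 fold change of 0.00 over all genes, the tested genes of the lists had medians of 0.50 for the partners, -0.18 for HES and HEY genes, -0.07 for BMP ligands and receptors, 0.24 for the SMADs, -0.14 for turnover genes, 0.20 for proneural targets and 0.26 for CDK inhibitors, and the medians of the other two lists follow below. Of 43 class II bHLH partners, the factors that pair with E proteins, 7 had enough counts to be tested. Of these 3 rose and 3 fell, where 31.2% of all genes were called higher and 32.3% lower. Neurod4, a neurogenic factor, fell from 13.9 ± 0.762 to 5.62 ± 1.02 CPM (log2 -1.29, SE 0.13), and Mesp2 fell by 0.37 on the log2 scale. The Mesp2 call was lost without control 2 (adjusted p = 0.0593), control 3 (0.0552), MAX restored library 1 (0.101) or library 3 (0.0793), and with DESeq2 (0.0669). Neurog3 (0.71), Bhlha15 (0.50) and the tendon factor Scx (0.96) rose at low levels, at most 11.4 CPM.

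The HES and HEY proteins are bHLH repressors that act against proneural factors, mostly under Notch. All 5 tested of 10 passed the test, where 63.5% of all genes did, so the count is not a result about this list. Hey1 went from 13.0 ± 0.839 to 27.7 ± 1.90 CPM (log2 1.09) and Hes5 from 0.815 to 1.70 CPM (1.06), while Hes1 went from 24.3 ± 1.31 to 12.5 ± 0.626 CPM (-0.96) and Hey2 from 6.92 ± 0.503 to 3.04 ± 0.163 CPM (-1.19). Hes6, which works against Hes1, fell by 0.18. Hes5 had 11, 8 and 6 counts in the controls and 26, 13 and 18 with MAX restored, so it was kept for testing through the group where it is high. It did not pass without control 3 (adjusted p = 0.0550) or without MAX restored library 1 (0.0830), nor with DESeq2 (0.0510). Genes of this family thus moved in both directions, where 31.2% of all genes were called higher and 32.3% lower.

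The BMP pathway is the best known inducer of ID genes. Of 23 ligand and receptor genes 7 were tested, with 1 higher, the receptor gene Acvr1 (log2 0.30, SE 0.07), and 1 lower, the receptor gene Bmpr1a (-0.28, SE 0.04). Among all genes tested, 31.2% were called higher and 32.3% lower. Bmp7, a ligand, was at 184 ± 11.7 and 175 ± 5.03 CPM (log2 -0.07), and Bmpr2 (-0.05), Acvr2a (0.09) and Acvr2b (-0.28) also did not pass. Without control 1, 2 of the list were higher and 2 lower, with Bmp7 at -0.12 (adjusted p = 0.00228) and Acvr2a at 0.14 (0.0175), and without MAX restored library 2 Acvr2b passed (-0.41, adjusted p = 0.0437). Of the 4 SMADs that carry the signal, Smad1 had 53.7, 57.0 and 55.6 CPM in the controls and 79.5, 77.5 and 77.4 CPM with MAX restored, a rise of 0.50 (SE 0.05) on the log2 scale without overlap. Smad9 rose by 0.54 (SE 0.08), from 26.3 ± 2.72 to 38.3 ± 1.71 CPM. Smad5 (-0.06) and Smad4 (-0.02) did not pass.

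Antagonists and feedback genes of the BMP pathway were higher in 6 of 9 tested and lower in 1, of 19 listed, where 31.2% of all genes were called higher and 32.3% lower. Its median log2 fold change was 0.70, beside 0.00 for all genes. Smurf1, a ubiquitin ligase that marks SMAD1 and SMAD5 for destruction, rose from 49.1 ± 3.93 to 79.9 ± 0.898 CPM (0.70), while its relative Smurf2 fell from 165 ± 7.51 to 122 ± 2.81 CPM (-0.43). The inhibitory SMAD gene Smad6 rose from 1.63 ± 0.174 to 4.32 ± 1.35 CPM (1.38), and Fstl1 (1.94) and Dand5 (0.89) rose from 0.393 and 2.58 CPM. Twsg1, a modulator of BMP binding, rose by 0.20 from 224 CPM. Most of the risers had few counts, and with a minimum count of 50 the number called higher was 2. Fstl1 had 5, 2 and 5 counts in the controls and 15, 19 and 17 with MAX restored. It was thus kept for testing only through the group where it is high, and the 6 and the median include it.

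Of 16 cofactors of E proteins 14 were tested, and 10 rose and 3 fell, where 31.2% of all genes rose and 32.3% fell. Their median was 0.31 on the log2 scale. Runx1t1, the ETO corepressor that binds E proteins, had 120, 130 and 122 CPM in the controls and 204, 193 and 196 CPM with MAX restored, a rise of 0.67 (SE 0.05) with no overlap. The LDB1 partner genes Ssbp2 (0.66), Ssbp3 (0.52) and Ssbp4 (1.37) rose too, as did the acetyltransferase gene Crebbp (0.41). The LIM-only gene Lmo1 fell from 58.5 ± 0.442 to 43.4 ± 2.78 CPM (-0.43), and without control 3, MAX restored library 1 or MAX restored library 3 the number of cofactors that fell was 1. Genes for turnover of ID and E proteins were lower in 4 of 8 tested and higher in 1, of 9 listed, where 32.3% of all genes were lower and 31.2% higher. Huwe1, a large ubiquitin ligase, fell from 1414 ± 92.6 to 928 ± 10.9 CPM (-0.61), and Cdc20, an activator of the anaphase-promoting complex, fell by 0.47. Stub1 (-0.19) and Cops5 (-0.16) were the other 2 that fell, though Cops5 did not pass without MAX restored library 2 (adjusted p = 0.0721), and Fzr1, another activator of the complex, rose by 0.20. Wdr48 (-0.12) did not pass.

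Targets of proneural factors and of E proteins moved both ways. Of 10 proneural targets 8 were tested, and 4 rose and 2 fell, where 31.2% of all genes rose and 32.3% fell. Insm1, a zinc finger factor of neuroendocrine cells, rose by 0.16 from 601 ± 16.7 CPM, and Gadd45g (0.73), Gfi1 (0.56) and Igfbpl1 (1.23) rose from lower levels. Igfbpl1 had 10, 4 and 5 counts in the controls and 15, 16 and 18 with MAX restored. It too was kept for testing through the group where it is high. Rgs16, a regulator of G protein signalling, fell from 58.6 ± 4.24 to 19.8 ± 1.23 CPM (-1.56), and Hes6, held by 2 of the lists, fell. E proteins are known to activate several CDK inhibitor genes and ID proteins to hold them down. All 5 listed passed the test, where 63.5% of all genes did, though the call of Cdkn2a was lost under other settings. Cdkn1c (1.63), Cdkn2b (0.43) and Cdkn1b (0.26) rose, and Cdkn1a fell from 150 ± 3.94 to 120 ± 7.75 CPM (-0.32). Cdkn2a was lower by a small margin (-0.13, adjusted p = 0.0361), and it did not pass without control 1 (adjusted p = 0.0897), nor without MAX restored library 1 (0.0642), 2 (0.129) or 3 (0.129), nor with DESeq2 (0.0624), upper-quartile scaling (0.0884) or a minimum count of 50 (0.0801).

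**Figure D5:**
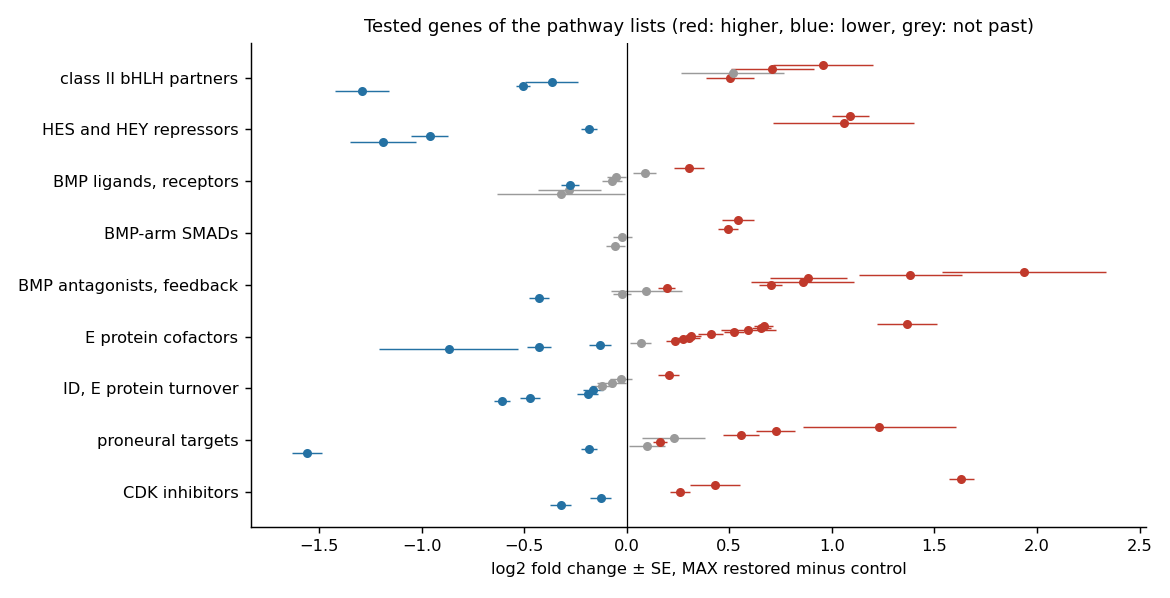
Log2 fold change ± SE on the x axis of the tested genes of each list on the y axis, with red for higher, blue for lower and grey for not past the threshold. Of the E protein cofactors 10 of 14 and of the BMP antagonists 6 of 9 are called higher, and 4 of 8 turnover genes are called lower. The 6 include Fstl1, which was kept for testing only through the MAX restored libraries. Among all genes tested, 31.2% are called higher and 32.3% lower.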

How the data were processed

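Each library has 1 file of counts as deposited, whole reads per gene symbol with no scaling. The authors, per the file headers, counted with featureCounts 1.6.0 without strand over exons of the UCSC mm9 annotation, with no option set for reads that map or overlap more than once, so reads shared by overlapping genes are left out. The submitters' processing notes also name bcl2fastq 1.8.4 and STAR 2.5.2a. The file headers name the same sequencing run for all 6 libraries, and per the labels' protocols libraries came from 500 ng of total RNA. The authors' files also give the exon length used for RPKM.

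Genes were kept with filterByExpr (minimum count 10), scaled by TMM and tested with the quasi-likelihood test of edgeR 4.0.16 in R 4.3.3, with group as the single term and both directions tested. Benjamini-Hochberg adjustment ran over all 12664 genes, and 0.05 was the threshold. A standard error is the size of the coefficient divided by the root of its F statistic. The biological coefficient of variation was 4.28%. CPM are counts scaled to a library of 1000000 after TMM. Alternatives were DESeq2 1.42.0, limma 3.58.1 (voom), other scalings, other filters, a stricter threshold, the replicate number as a block and leaving out each library. The script was tested on simulated data. No spike-in is named, so changes are relative to the other transcripts.

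The members and lists were chosen with earlier results of these data known. Named were the members, all tested genes of a list or the 6 with the smallest adjusted p, the 3 genes closest in profile, and tested neighbours within 200 kb, at most 2 a side. A gene that the rule names is not reported here. Windows of 25 tested genes on each side leave out symbols spanning over 3 Mb, which the annotation places more than once.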

Additional observations from a re-analysis of the deposited data

How the results depend on the processing

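Every one of the 7 members kept its direction under all 15 settings except Tcf12, which turned to -0.0055 without control 1 and was not called in any. Id1 ranged from -0.37 to -0.27, Id3 from 0.28 to 0.33 and Tcf4 from -0.33 to -0.28 in log2 fold change, and all 3 stayed past the threshold. Tcf3 ranged from 0.12 to 0.17 and was not called without MAX restored library 2 or at a threshold of 0.01, and Id4 ranged from 0.04 to 0.14 and was called only without control 1. Members called higher were therefore 1 at the threshold of 0.01 and between 1 and 3 with a library left out. Max lay between 4.36 and 4.41. The median log2 fold change of all genes was -0.004, and among the scalings it was farthest from that with the upper quartile, at 0.022.

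In the lists, the minimum count of 50, which tests fewer genes, left 1 class II partner higher, 1 HES or HEY gene higher, 2 BMP antagonists higher, 1 E protein cofactor lower and 1 CDK inhibitor lower. DESeq2 and the threshold of 0.01 each gave 1 HES or HEY gene higher, 1 cofactor lower and 1 CDK inhibitor lower, and upper-quartile scaling gave 1 CDK inhibitor lower. With a library left out, the counts ran from 1 to 2 for HES and HEY genes higher, 1 to 2 for BMP ligands and receptors higher and 1 to 2 lower, 1 to 2 for cofactors lower and 1 to 2 for CDK inhibitors lower. Some values near 0 that were not called changed sign. Smad4 became 0.0045 with upper-quartile scaling. Bcl2l1 became 1e-04 with RLE scaling and with DESeq2, 0.022 with upper-quartile scaling and 0.018 with the minimum count of 50. With a library left out, the lowest and highest values were -0.0055 and 0.038 for Tcf12, -0.046 and 0.011 for Smad4, -0.0023 and 0.041 for Setd7, -0.0062 and 0.033 for Cul9, -0.046 and 0.15 for Mcts2, -0.0305 and 0.0257 for Bcl2l1, -0.018 and 0.085 for Mboat2, -0.37 and 0.078 for A330033J07Rik, -0.025 and 0.053 for Mbd3, and -0.0021 and 0.099 for Zfp280d. E2f2 passed with upper-quartile scaling (0.10, adjusted p = 0.0351) and with the minimum count of 50 (0.095, adjusted p = 0.038). Of the 95 genes followed, 6 lost their call under some setting and 11 gained one. The cause of these changes was not tested.

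The replicate number as a block called 8034 genes against 8040 and the same numbers of members, 2 higher and 2 lower. The deviations of libraries with the same number had correlations of 0.00, 0.04 and -0.02 over genes. Those of libraries with unlike numbers ran from -0.07 to 0.06. These values cannot decide whether libraries with the same number share a culture or preparation, which the labels leave unsaid. At the depth of 10046899 counts and above, genes with few counts such as Scx, Fstl1, Igfbpl1 and Hes5 limit the lists, whereas each member had over 1000 counts in every library.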
